A study of Mus musculus with 21 samples.

Results

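Megakaryocytes are the marrow cells that shed platelets, and 8 genes of that lineage were followed array by array: Pf4, Ppbp, Vwf, Itga2b, Gp1bb, Gp1ba, Gp5 and Gp9. A probe set was taken where the platform annotation gave one of these symbols, which found 7 of the 8 genes among 18193 genes represented, on 8 probe sets that name 1 gene and 1 shared with Septin5, of 45037 in all. Gp1ba had no probe set in the annotation and has no value here. The arrays were Affymetrix Mouse Genome 430 2.0, 21 in all, and each of the 7 groups had 3. For 4 of the groups marrow cells were sorted for B220, a surface marker of the B lineage, from Blnk KO/LAP tg, Blnk KO, Cebpb LAP transgenic and wild-type mice. The pre-B leukaemia line LB31, derived from a Blnk KO mouse and grown with 5 ng/ml of interleukin 7, carried a pMY retroviral vector with Blnk cDNA, with a loss-of-function Blnk mutant called YF, or with no insert. The LAP isoform is the form of C/EBPβ that activates transcription, and BLNK passes signals of the pre-B cell receptor on within the cell. No source used here names the promoter of the transgene or the age of the mice. LB31 is 1 line, so its 3 groups share its lesions. Nor do the labels say that replicates were separate animals or cultures, so p-values measure only the spread between these arrays, which may be technical.

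Megakaryocytes grow large and polyploid and load their granules with proteins that platelets later release at a wound. Platelets first hold on to damaged vessel wall through the GPIb-IX-V complex, which is built from the products of Gp1ba, Gp1bb, Gp9 and Gp5 and binds von Willebrand factor, the product of Vwf. They then aggregate through the fibrinogen receptor αIIbβ3, of which Itga2b encodes the α subunit, and they release the chemokines PF4 (CXCL4) and PPBP (CXCL7) from α granules. GATA, Ets and Runx factors are known to drive these genes.

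Pf4 and Ppbp are neighbours on chromosome 5, and their start regions are shown with that of Gp5 because the members moved together across arrays while these windows differ in motif content. Each sequence is RefSeq's, from GRCm38.p6, and spans 250 bases before to 50 after the annotated start on the gene's own strand. Capitals mark matches to AGATAA or TGATAA, the GATA motifs searched, on either strand.
Pf4 (chr5:90772185-90772484, plus strand): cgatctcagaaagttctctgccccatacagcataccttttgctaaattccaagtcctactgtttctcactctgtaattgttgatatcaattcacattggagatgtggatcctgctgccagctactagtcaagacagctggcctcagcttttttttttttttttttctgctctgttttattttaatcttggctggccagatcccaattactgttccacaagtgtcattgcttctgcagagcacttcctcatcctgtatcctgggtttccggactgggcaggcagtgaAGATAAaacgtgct
Ppbp (chr5:90768268-90768567, plus strand): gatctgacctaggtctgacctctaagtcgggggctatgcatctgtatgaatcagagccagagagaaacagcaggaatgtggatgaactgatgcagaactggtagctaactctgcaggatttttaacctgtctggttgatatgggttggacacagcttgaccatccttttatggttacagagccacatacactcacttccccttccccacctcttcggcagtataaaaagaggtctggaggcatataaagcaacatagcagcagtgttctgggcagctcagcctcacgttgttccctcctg
Gp5 (chr16:30310732-30311031, minus strand): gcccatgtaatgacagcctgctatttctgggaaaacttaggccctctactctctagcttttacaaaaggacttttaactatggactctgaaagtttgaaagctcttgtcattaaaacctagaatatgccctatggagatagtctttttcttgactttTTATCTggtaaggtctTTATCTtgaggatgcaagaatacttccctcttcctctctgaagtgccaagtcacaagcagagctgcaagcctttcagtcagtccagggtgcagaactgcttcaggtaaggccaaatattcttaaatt
Pf4 had 1 GATA match, at position 37 after the start, Gp5 had 2, at 93 and 77 bases before it, and Ppbp had 0. Of the other members with a window, Gp1ba had 2 and Itga2b, Gp1bb and Gp9 had 0 each. Vwf had no entry. The same GATA letters occurred in 18.6% of 32851 promoter windows of that length. The Ets letters searched on both strands were AGGAAG and CCGGAAG, and also ACCGGAA, and matches of these can overlap each other. Every member window except that of Ppbp held at least 1 of them, as did 42% of all windows. The Runx letters TGNGGT, on both strands, occurred 4 times for Gp9 and once for Gp1bb, and in 45.8% of all windows. The C/EBP letters TTGCNNAA occurred once, for Pf4, at 212 bases before the start, and in 10.8% of all windows. A match is a run of letters in this window and not a measured binding site.

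The values are probe set signals from MAS5, quantile normalized and given as log2(signal + 4), and the word called means an adjusted p under 0.05 in limma, fitted over every gene. A count at an unadjusted p uses a looser threshold, so the shares of genes called do not apply to it. Replicate arrays correlated with r from 0.964 to 0.977 over all probe sets. In marrow the Cebpb probe set with the highest mean signal followed the labels, at 9.90 ± 0.08 (SD, n = 3) in LAP tg/BLNK KO and 10.05 ± 0.15 in LAP tg marrow, against 5.02 ± 0.35 in Blnk KO and 5.43 ± 0.10 in wild-type marrow. In LB31 it read 10.11 ± 0.05 with BLNK, 10.09 ± 0.16 with YF and 10.22 ± 0.10 with the empty vector, as high as in LAP tg marrow, and no source used here says whether the line carries the transgene. A second Cebpb probe set did not follow the labels. It read 7.20 ± 0.39 in LAP tg/BLNK KO and 8.31 ± 0.99 in LAP tg marrow, against 7.04 ± 0.64 in Blnk KO and 7.28 ± 0.23 in wild-type marrow. In the LB31 groups its means were 4.62 to 5.02. The match of Cebpb to the labels therefore rests on the first of these probe sets. The only Blnk probe set did not follow the labels either. It gave 12.03 ± 0.14 in LAP tg/BLNK KO and 12.37 ± 0.24 in Blnk KO marrow, against 12.44 ± 0.09 in wild-type marrow, and 8.56 ± 0.06 in LB31 with Blnk cDNA against 9.63 ± 0.02 with the empty vector. No source used here says which part of Blnk is deleted, carried by the vector or probed. This probe set therefore checks neither label, and the groups are called knockout-labelled and BLNK-labelled below. All 9 B-lineage markers with a probe set lay above their array's 40th percentile on every array.

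All 7 measured members were higher in LAP tg/BLNK KO-labelled marrow than in wild-type marrow, by 1.22 to 1.91 on the log2 scale. Their median change was 1.58, against 0.04 over all 13338 genes tested, and 7 of 7 were called higher where 16.5% of all genes were. On every one of the 7, all 3 LAP tg/BLNK KO-labelled arrays lay above all 9 other marrow arrays after normalization, which held for 7.23% of genes. For Itga2b the margin was small, at 8.88 on LAP tg/BLNK KO-labelled array 3 against 8.84 on Blnk KO-labelled array 3. The deposited signals of these arrays had the reverse order for Itga2b, at 551.9 against 564.9. In bulk samples fewer or more cells of a type cannot be told apart from less or more RNA per cell, so these are signals of the sorted population.

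**Figure D1:**
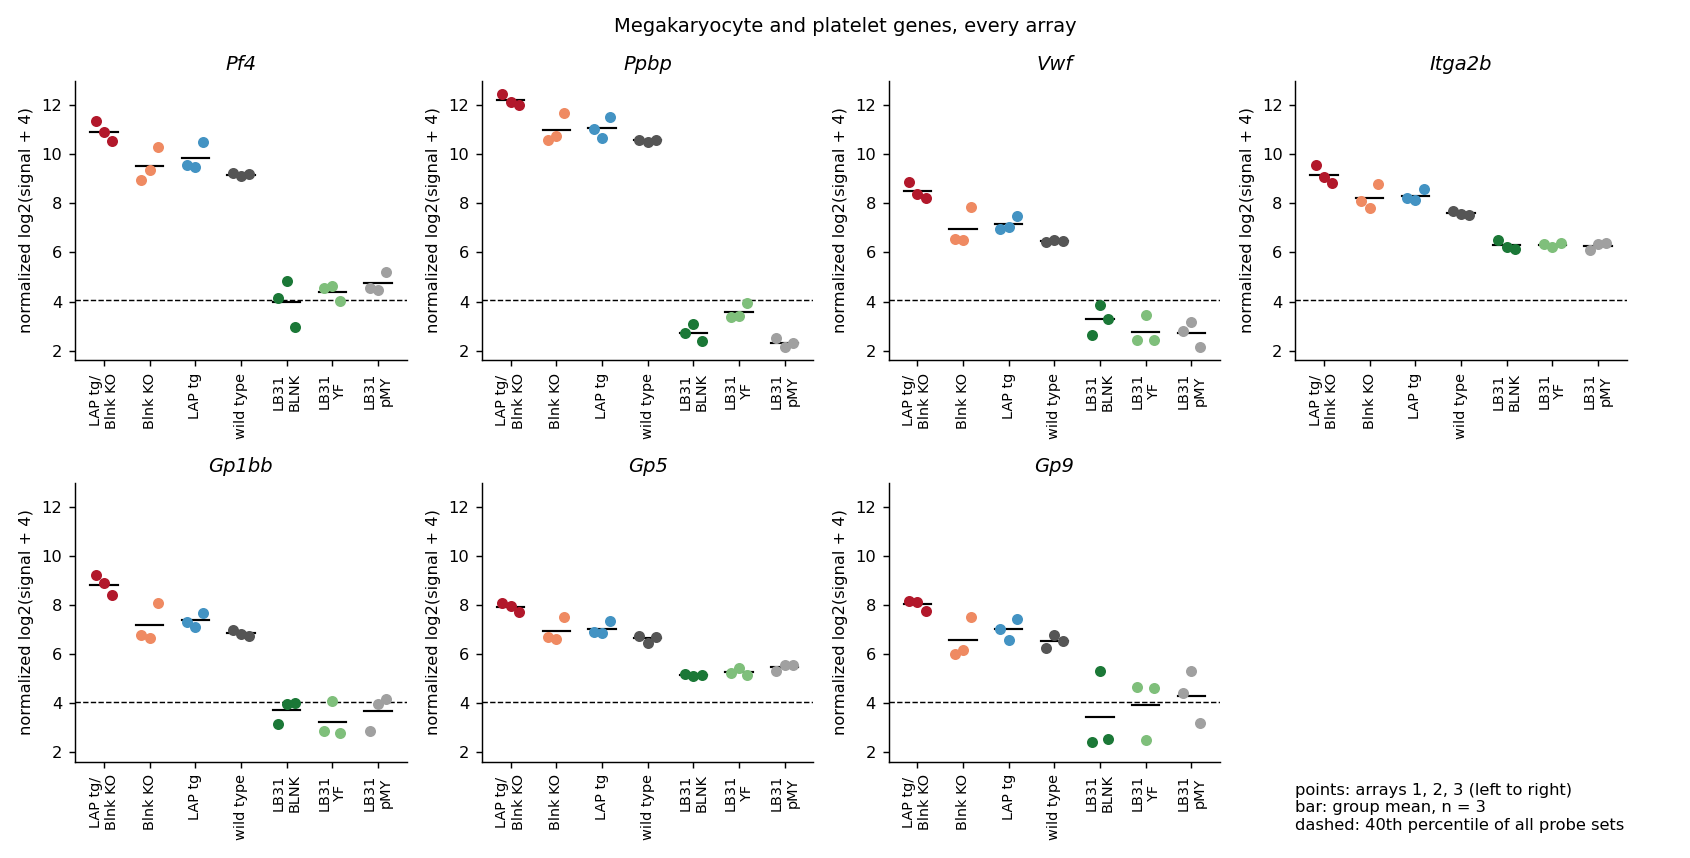
Normalized log2(signal + 4) of the 7 measured members on all 21 arrays, which were normalized together. Points are arrays, bars are group means (n = 3) and the dashed line is the 40th percentile of all probe sets, 4.06. The LAP tg/BLNK KO-labelled points lie above all other marrow points in every panel, and Ppbp and Vwf lie under the dashed line on all LB31 arrays.

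Pf4 encodes platelet factor 4, a heparin-binding α-granule chemokine. Its normalized log2 signal was 11.26, 10.83 and 10.48 on LAP tg/BLNK KO-labelled arrays 1 to 3, 9.0, 9.38 and 10.24 on Blnk KO-labelled, 9.56, 9.49 and 10.45 on LAP tg, and 9.25, 9.14 and 9.21 on wild-type arrays. The lowest doubly labelled array stood just above the highest array of each singly altered group. The change against wild-type marrow was 1.66 ± 0.30 (SE, n = 3 arrays per group here and below; limma adjusted p = 0.000956).

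Ppbp encodes the precursor of platelet basic protein and of the neutrophil-attracting chemokine cut from it. It read 12.35, 12.01 and 11.91 in LAP tg/BLNK KO-labelled, 10.52, 10.69 and 11.59 in Blnk KO-labelled, 10.97, 10.61 and 11.42 in LAP tg, and 10.54, 10.47 and 10.51 in wild-type marrow. The wild-type arrays had an SD of 0.04, while array 3 stood high in both singly altered groups. The change against wild-type marrow was 1.58 ± 0.24 (limma adjusted p = 0.000267).

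The 5 CXC chemokine genes listed near Pf4 and Ppbp did not move as a block. Only 2 of them passed the filter on low signal. Cxcl5, the gene before Ppbp in RefSeq's order, was higher by 1.66 ± 0.50 in LAP tg/BLNK KO-labelled than in wild-type marrow (limma adjusted p = 0.0227), while Cxcl1, named after its values were seen, differed by -0.33 ± 0.24 (limma adjusted p = 0.325).

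Vwf encodes the adhesive multimer that megakaryocytes and endothelial cells store. It read 8.92, 8.43 and 8.28 in LAP tg/BLNK KO-labelled, 6.70, 6.66 and 7.94 in Blnk KO-labelled, 7.08, 7.17 and 7.57 in LAP tg, and 6.59, 6.67 and 6.64 in wild-type marrow. As folds over the wild-type mean these were 4.87, 3.48 and 3.14 in the doubly labelled arrays, against 1.05, 1.02 and 2.47 and then 1.36, 1.45 and 1.92 in the singly altered groups. Vwf had the largest change of the members against wild-type marrow, at 1.91 ± 0.28 (limma adjusted p = 0.000207).

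Itga2b encodes integrin αIIb, which appears early on the lineage and also on some stem and progenitor cells. It read 9.55, 9.13 and 8.88 in LAP tg/BLNK KO-labelled, 8.17, 7.88 and 8.84 in Blnk KO-labelled, 8.27, 8.21 and 8.62 in LAP tg, and 7.78, 7.67 and 7.62 in wild-type marrow. It was the 1 member of 7 whose Blnk KO-labelled arrays all lay above the wild-type arrays, which held for 17.7% of genes. The change of the doubly labelled group against wild-type marrow was 1.5 ± 0.22 (limma adjusted p = 0.000183).

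Gp1bb encodes the β chain of the von Willebrand factor receptor. It read 9.25, 8.92 and 8.46 in LAP tg/BLNK KO-labelled, 6.90, 6.81 and 8.15 in Blnk KO-labelled, 7.42, 7.21 and 7.77 in LAP tg, and 7.09, 6.97 and 6.89 in wild-type marrow, a change of 1.89 ± 0.30 between the first and last groups (limma adjusted p = 0.00036). Arrays 1 and 2 of the Blnk KO-labelled group lay within or under the wild-type range, and array 3 lay above it. A second, dimmer Gp1bb probe set changed by only 0.45 ± 0.23 (limma adjusted p = 0.181 over 30112 probe sets). The probe set shared with Septin5, a gene that overlaps Gp1bb in RefSeq, changed by 0.36 ± 0.29 (limma adjusted p = 0.411). The size of the Gp1bb change therefore rests on 1 of its probe sets.

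Gp5 and Gp9 encode the other subunits of that receptor that were measured. Gp5 read 8.16, 8.05 and 7.80 in LAP tg/BLNK KO-labelled, 6.84, 6.76 and 7.61 in Blnk KO-labelled, 7.01, 6.99 and 7.45 in LAP tg, and 6.89, 6.63 and 6.84 in wild-type marrow. Its change against wild-type marrow was the smallest of the members, at 1.22 ± 0.21 (limma adjusted p = 0.000619). Gp9 read 8.24, 8.21 and 7.84 in LAP tg/BLNK KO-labelled, 6.21, 6.36 and 7.61 in Blnk KO-labelled, 7.15, 6.73 and 7.53 in LAP tg, and 6.42, 6.91 and 6.67 in wild-type marrow. It changed by 1.43 ± 0.31 (limma adjusted p = 0.00362), and 2 of its Blnk KO-labelled arrays lay under all 3 wild-type arrays.

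The members were also higher in LAP tg/BLNK KO-labelled marrow than in either singly altered group. Against Blnk KO-labelled marrow 7 of 7 were called higher, where 3.3% of all genes were, with changes from 0.89 ± 0.22 for Itga2b (limma adjusted p = 0.0252) to 1.59 ± 0.30 for Gp1bb (limma adjusted p = 0.00538). The median was 1.32, against 0.03 over all genes. These calls rested on few arrays: 2 of 7 were left without Blnk KO-labelled array 1, without its array 2 or without LAP tg/BLNK KO-labelled array 1, and 3 without LAP tg/BLNK KO-labelled array 2. All 7 changes stayed above 0 in each case.

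Against LAP tg marrow 7 of 7 were called higher, where 14.5% of all genes were, with changes from 0.82 ± 0.22 for Itga2b (limma adjusted p = 0.0137) to 1.41 ± 0.30 for Gp1bb (limma adjusted p = 0.00357). Gp9 was closest to the threshold, at 0.96 ± 0.31 (limma adjusted p = 0.0371). The median was 1.02, against 0.02 over all genes. Without LAP tg/BLNK KO-labelled array 1 the count was 4 of 7. The 3 comparisons of the doubly labelled group share its arrays and are not independent of each other.

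**Figure D2:**
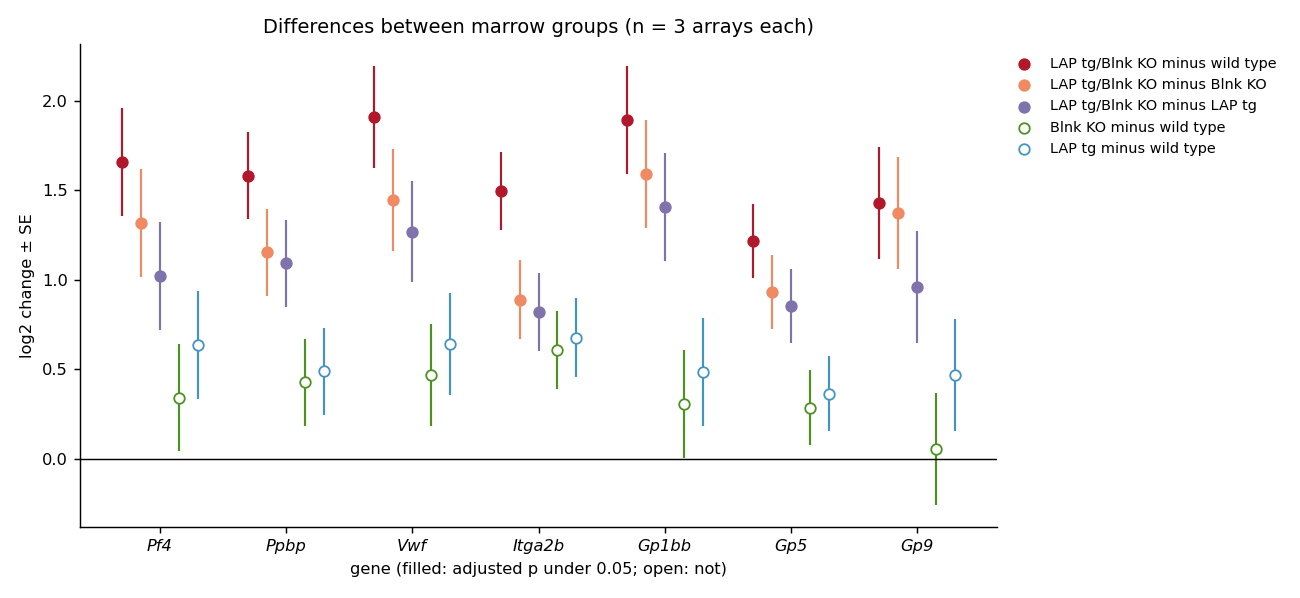
Log2 changes ± SE between marrow groups for the 7 measured members, from limma with n = 3 arrays per group. Filled points passed an adjusted p of 0.05. The doubly labelled group minus wild type runs from 1.22 to 1.91, and the singly altered groups minus wild type run from 0.05 to 0.68 with no filled point.

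In Blnk KO-labelled marrow no member was called against wild-type marrow, where 17.1% of all genes were called, and 1 of 7 had an unadjusted p under 0.05 in limma. The changes ran from 0.05 ± 0.31 for Gp9 to 0.61 ± 0.22 for Itga2b, with limma adjusted p from 0.0784 to 0.938. Itga2b was the exception under other settings, at 0.91 (limma adjusted p = 0.00975) with the signals as deposited and 0.82 (limma adjusted p = 0.025) without Blnk KO-labelled array 2.

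In LAP tg marrow no member was called against wild-type marrow, where 4% of all genes were called, and 2 of 7 had an unadjusted p under 0.05 in limma. The changes ran from 0.36 ± 0.21 for Gp5 to 0.68 ± 0.22 for Itga2b, with limma adjusted p from 0.106 to 0.424. All 3 LAP tg arrays lay above all 3 wild-type arrays for 6 of the 7 members, Gp9 being the exception, where this held for 12.8% of genes. Without Blnk KO-labelled array 3, which enters the shared estimate of the spread, Itga2b was called at 0.68 (limma adjusted p = 0.0392).

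By group mean all 7 members had the same order, LAP tg/BLNK KO-labelled, LAP tg, Blnk KO-labelled and wild-type marrow from high to low. The middle pair could not be told apart: LAP tg minus Blnk KO-labelled was 0.06 to 0.41, less than the larger SD of that pair for 7 of 7 members. Blnk KO-labelled minus wild-type was less than the larger SD for 6 of 7, Itga2b being the exception.

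The interaction asks whether the LAP change differs between knockout-labelled and other marrow. It was above 0 for all 7 members, from 0.21 ± 0.31 for Itga2b to 1.10 ± 0.43 for Gp1bb, but none was called, with limma adjusted p from 0.244 to 0.81, where 1.73% of all genes were called. In limma 1 of 7 had an unadjusted p under 0.05. The count was 3 of 7 without Blnk KO-labelled array 3, namely Gp9, Gp1bb and Vwf. It was 6 of 7 without that array and LAP tg array 3, a setting chosen after seeing the data. Itga2b was then the member not called, at 0.62, and Gp1bb reached 1.69. Each of these arrays was the highest of its group for every member, so leaving it out raises the interaction by itself. These counts are therefore no test of the interaction.

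The spread within groups was shared by the members. Blnk KO-labelled array 3 exceeded the mean of arrays 1 and 2 for 7 of 7, by 0.81 to 1.33, and LAP tg array 3 exceeded its own pair for 7 of 7, by 0.38 to 0.92. Within the doubly labelled group array 1 was the highest and array 3 the lowest for every member. The SDs of the members were 0.19 to 0.40 in LAP tg/BLNK KO-labelled, 0.47 to 0.77 in Blnk KO-labelled and 0.22 to 0.53 in LAP tg, against 0.04 to 0.25 in wild-type marrow. Without array 3 of both singly altered groups, the Blnk KO-labelled changes against wild-type marrow ran from -0.39 for Gp9 to 0.33 for Itga2b. The doubly labelled changes against wild-type marrow ran from 1.22 for Gp5 to 1.91 for Vwf, with 7 of 7 called. Neither group of that comparison holds a dropped array, so its changes could move only through the normalization. The dropped arrays also enter the shared estimate of the spread, so its calls in this setting are no check.

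Over the 12 marrow arrays the 21 pairs of members correlated with r from 0.890 to 0.988 (median 0.967), which is given as a description since the arrays share groups and array-wide effects. A member's signal ranged over 1.53 to 2.44 on the log2 scale, and over 0.35 to 0.69 once the mean of the 7 members on each array was removed. Ppbp kept the smallest remainder and Gp9 the largest. Among the 13331 other genes tested in marrow, the 6 whose pattern was most like the members' mean were Rab27b (r = 0.992 over 12 arrays), Tubb1 (0.990), Clu (0.989), Cavin2 (0.989), Treml1 (0.988) and Cald1 (0.987). Tubb1 encodes the β1-tubulin of platelets, Rab27b a small GTPase of granule transport, and Treml1 a receptor of α granules. The differences of these 6 between LAP tg/BLNK KO-labelled and wild-type marrow, from 0.98 (Treml1) to 1.85 (Cald1), follow from that choice on the same arrays and are a description.

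Other genes of the lineage were read from 3 lists, of transcription factors, of receptors and of granule and cytoplasmic proteins. In LAP tg/BLNK KO-labelled against wild-type marrow 16.5% of all genes were called higher. Of 14 receptor genes tested, 11 were called higher and 0 lower, with a median of 1.01. The examples with the largest changes were F2r, a thrombin receptor, at 1.47 ± 0.22 (limma adjusted p = 0.000187), Itgb3, the β3 partner of αIIb, at 1.44 ± 0.22 (0.000275), and Tbxa2r, the thromboxane A2 receptor, at 1.42 ± 0.13 (3.09e-06). Of 18 granule and cytoplasmic genes, 15 were called higher and 0 lower, with a median of 1.31. They were led by F13a1, coagulation factor XIII A, which monocytes and macrophages also make, at 4.04 ± 0.23, by Mmrn1, the factor V-binding multimerin of α granules, at 2.96 ± 0.16, and by Thbs1, thrombospondin 1, at 1.84 ± 0.31.

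Of the 9 transcription factors of the lineage, 3 were called higher in the same comparison, where 16.5% of all genes were. They were Runx1 by 0.82 ± 0.18, Gata2 by 0.64 ± 0.19 and Zfpm1 by 0.56 ± 0.13. Runx1 and Gata2 also act in other blood cells, and Zfpm1 encodes the GATA partner FOG1. Gata1, the master regulator of the erythroid and megakaryocyte lineages, was not called, at 0.80 (limma adjusted p = 0.172). It read 7.22, 7.04 and 6.85 in LAP tg/BLNK KO-labelled, 5.94, 6.34 and 7.06 in Blnk KO-labelled, 7.0, 6.36 and 8.53 in LAP tg, and 6.12, 6.33 and 6.26 in wild-type marrow. Its highest array was LAP tg array 3, which was not the highest for any member.

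**Figure D3:**
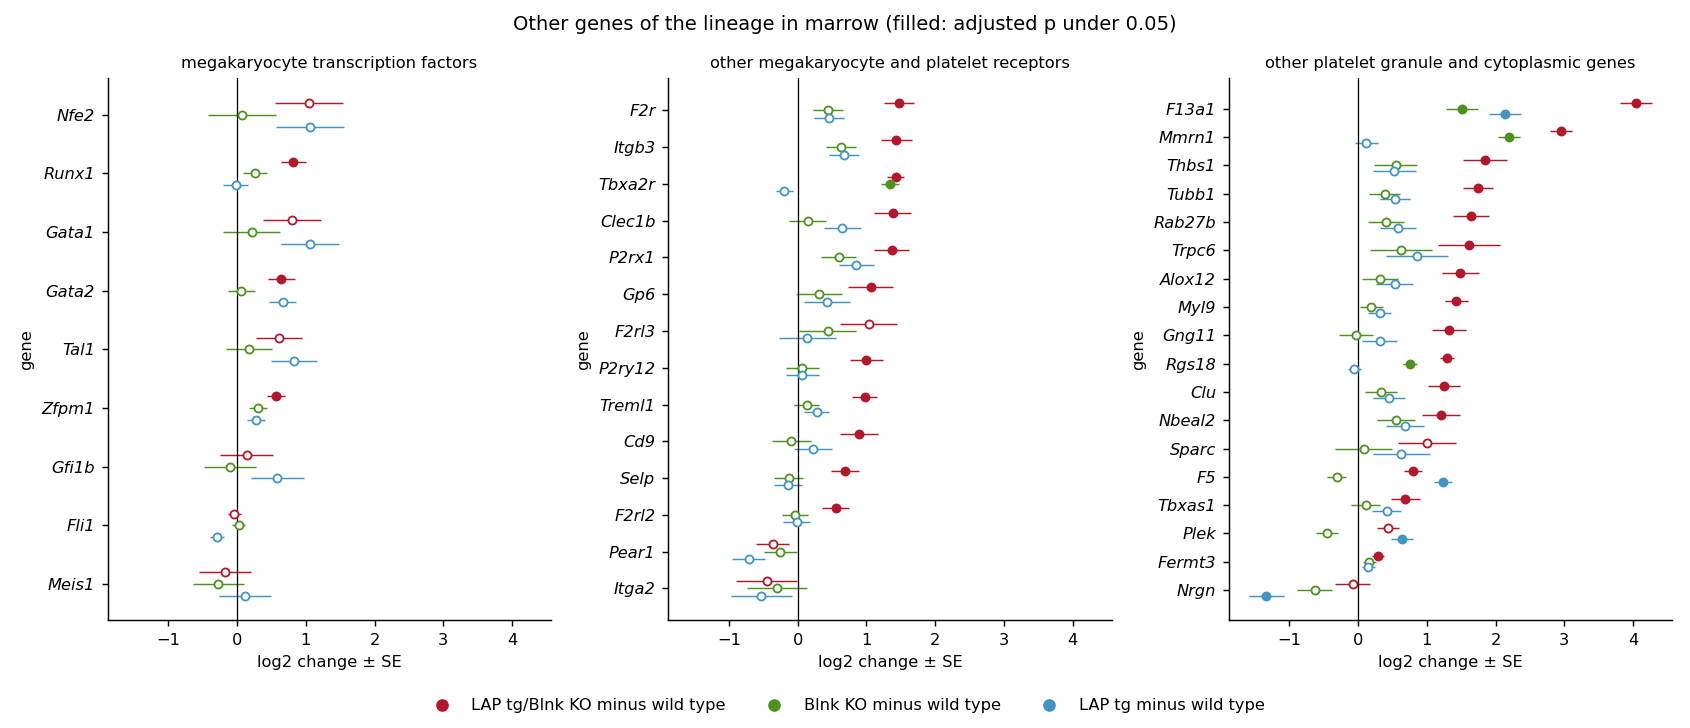
Log2 changes ± SE for other megakaryocyte and platelet genes in marrow against wild type, from limma with n = 3 arrays per group, with filled points at an adjusted p under 0.05. Mmrn1, Tbxa2r and Rgs18 have filled points for LAP tg/BLNK KO-labelled and Blnk KO-labelled marrow and lie near 0 in LAP tg marrow.

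Against Blnk KO-labelled marrow, where 3.3% of all genes were called higher, the doubly labelled group had 6 of 14 receptor genes called higher. The counts were 12 of 18 for granule and 0 of 9 for transcription factor genes. Against LAP tg marrow, where 14.5% of all genes were called higher, the counts were 7 of 14, 11 of 18 and 1 of 9. The last is near that share. F5, coagulation factor V, was lower there by 0.44.

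A few lineage genes changed in a singly altered group, where no member was called. In Blnk KO-labelled against wild-type marrow, 1 of 14 receptor, 3 of 18 granule and 0 of 9 transcription factor genes were called higher, where 8.38% of all genes were, so the receptor count is near that share. They were Tbxa2r by 1.34 ± 0.13, Mmrn1 by 2.19 ± 0.16, F13a1 by 1.51 ± 0.23 and Rgs18, a regulator of G protein signalling, by 0.76 ± 0.10. Mmrn1 read 10.01, 10.03 and 10.18 in LAP tg/BLNK KO-labelled, 9.49, 9.02 and 9.41 in Blnk KO-labelled, 7.27, 6.98 and 7.47 in LAP tg, and 7.14, 6.83 and 7.38 in wild-type marrow. All 3 Blnk KO-labelled arrays lay above all wild-type arrays on this gene, which held for Itga2b among the members. Tbxa2r read 7.93, 7.91 and 7.73 in LAP tg/BLNK KO-labelled, 7.69, 7.59 and 8.04 in Blnk KO-labelled, 6.31, 6.33 and 6.08 in LAP tg, and 6.44, 6.45 and 6.40 in wild-type marrow, which again split the arrays by the knockout label.

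In LAP tg against wild-type marrow, where 2.11% of all genes were called higher, so were 3 of 18 granule, 0 of 14 receptor and 0 of 9 transcription factor genes, and 1 granule gene was called lower: F13a1 by 2.13 ± 0.23, F5 by 1.23 ± 0.14, Plek (pleckstrin) by 0.64 ± 0.16 and Nrgn (neurogranin, a calmodulin-binding protein) by -1.33. F13a1 read 11.60, 11.51 and 11.19 in LAP tg/BLNK KO-labelled, 8.81, 8.85 and 9.02 in Blnk KO-labelled, 9.11, 9.23 and 10.22 in LAP tg, and 7.38, 7.64 and 7.15 in wild-type marrow. All 3 altered groups lay above the wild-type arrays on this gene. Nrgn was the 1 gene of these 3 lists with a called interaction, at 1.88 ± 0.36 (limma adjusted p = 0.0174).

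Markers of other cells that a B220 sort of marrow could hold moved with the members on some arrays. Mean log2 signal relative to the wild-type mean was 1.89, 1.59 and 1.31 for the 7 members on LAP tg/BLNK KO-labelled arrays 1 to 3, and 1.30, 0.97 and 0.79 for 13 neutrophil markers. On Blnk KO-labelled array 3 the members stood at 1.07, the neutrophil markers at 0.77 and 8 erythroid markers at 0.78. On LAP tg array 3 the members stood at 0.91, the neutrophil markers at 2.08, the erythroid markers at 2.05 and 4 mast cell and basophil markers at 2.08. The members were thus the highest of these lists on the doubly labelled arrays and the lowest of them on LAP tg array 3. Plasmacytoid dendritic cells carry B220 too, and their 6 markers ran the other way, at -1.38, -0.92 and -0.64 on LAP tg/BLNK KO-labelled arrays 1 to 3. Against wild-type marrow their median change in that group was -0.95, against 0.04 over all genes. The largest called falls were those of Ccr9 (-2.27), Cox6a2 (-1.60) and Siglech (-1.13), while 1 of the 6 markers was called higher. Their summed signal was 431 to 783.1 in LAP tg/BLNK KO-labelled, 1504 to 2169 in Blnk KO-labelled and 790.8 to 903.3 in LAP tg arrays, against 1192 to 1569 in wild-type arrays. Of the 9 B-lineage markers, 3 were called higher in the doubly labelled group against wild-type marrow, where 16.5% of all genes were. They were led by the surrogate light chain genes Igll1 (2.65) and Vpreb1 (1.96). Others were called lower, led by Cd22 (-2.14), and the median of the 9 was -0.03, against 0.04 over all genes. The part of any of these cells in the members' signals was not tested.

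**Figure D4:**
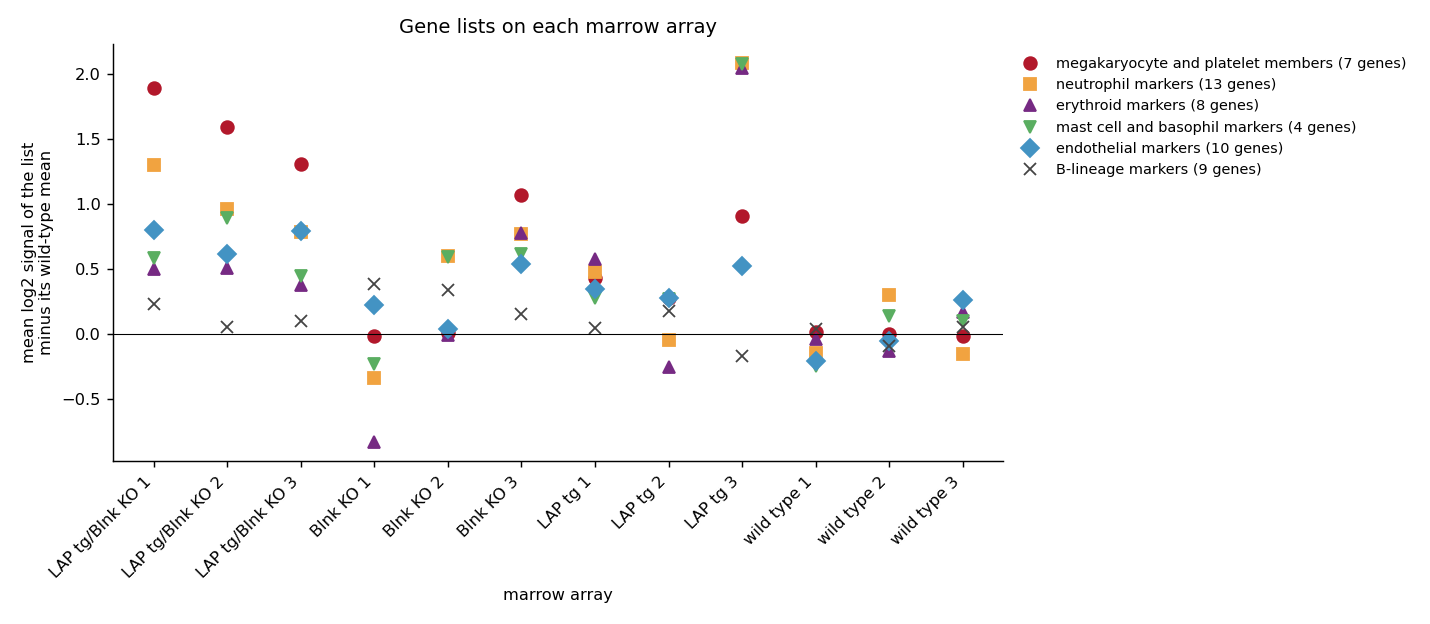
Mean log2 signal of 6 gene lists on the 12 marrow arrays, each relative to its mean over the wild-type arrays. Each symbol is 1 list on 1 array. The members are the highest list on LAP tg/BLNK KO-labelled arrays 1 to 3, at 1.31 to 1.89, and lie under the neutrophil, erythroid and mast cell lists on LAP tg array 3.

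In LAP tg/BLNK KO-labelled against wild-type marrow, 3 of 13 neutrophil markers were called higher by limma (S100a8 by 0.67), where 16.5% of all genes were. The early granule gene Elane was not called, at 0.64 (limma adjusted p = 0.294). The median change of the 13 neutrophil markers was 1.02, against 0.04 over all genes. At an unadjusted p under 0.05 in limma 7 of them were higher, a looser threshold for which no share of all genes is given. Their summed signal was 41600 to 53430 in the doubly labelled, 17490 to 39930 in Blnk KO-labelled and 23770 to 71290 in LAP tg arrays, against 22060 to 27850 in wild-type arrays. None of 8 erythroid and none of 4 mast cell and basophil markers was called, and none had an unadjusted p under 0.05 in limma. The erythroid sums were 7375 to 8050, 3267 to 9249 and 4265 to 18240 in the same altered groups, against 4663 to 5742 in wild-type arrays. The summed signal of the members was 7091 to 10610, 2650 to 5806 and 3080 to 5424, against 2587 to 2727. No gene of any list was at 0 on any array.

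Vwf is also an endothelial gene. Of 10 endothelial markers, 6 were called higher in the doubly labelled group against wild-type marrow, where 16.5% of all genes were. They were led by Tek (1.77 ± 0.40), Plvap (1.29 ± 0.29) and Emcn (1.09 ± 0.29). Cdh5, which encodes the endothelial junction protein VE-cadherin, was not called, at 0.11 (limma adjusted p = 0.803), nor was Pecam1, at -0.28 (limma adjusted p = 0.101), a gene that platelets and leukocytes also express. The summed signal of the 12 endothelial markers with a probe set was 560.5 to 699.8 in the doubly labelled, 451 to 557 in Blnk KO-labelled and 587.1 to 669.2 in LAP tg arrays, against 427.9 to 507.1 in wild-type arrays. Their part in the Vwf result was not tested.

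In LB31 the members were low or near the floor of the arrays. With the empty vector all 7 were called lower than in Blnk KO-labelled marrow, where 29.9% of 14648 genes were called lower. Ppbp, Vwf and Gp1bb did not pass the filter within LB31 and entered this fit only through marrow arrays, where they are high. Their calls were thus favoured by the filter, and the count of 7 is a description and no test against that share. Both groups carry the same Blnk KO label. These groups also differed in the Cebpb probe set with the highest mean signal, which was higher in empty-vector LB31 by 5.20 ± 0.13 on the log2 scale (limma adjusted p = 4.8e-18). The second Cebpb probe set was lower there, at 4.62 ± 0.42 against 7.04 ± 0.64. The part of Cebpb in the members' difference was not tested. Ppbp read 2.50, 2.15 and 2.29 in empty-vector LB31, against a mean of 11.01 in Blnk KO-labelled marrow, with all 21 arrays normalized together. It lay above its array's 40th percentile on 0 of 3 arrays in each LB31 group, so the difference is given as a bound and was at least 123-fold lower. The bound sets the marrow mean against the array's 40th percentile, or against the gene's own signal where that was higher. Vwf read 2.78, 3.18 and 2.14, also on 0 of 3 arrays above that level in each LB31 group, and was at least 7.52-fold lower.

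Pf4 was above that level on all 3 empty-vector arrays, at 4.57, 4.48 and 5.19, and was lower than in Blnk KO-labelled marrow by a log2 change of -4.79 ± 0.38 (limma adjusted p = 3.63e-10). Itga2b, at 6.09, 6.36 and 6.38, and Gp5, at 5.32, 5.55 and 5.57, were above it on all 9 LB31 arrays, and changed by -1.95 ± 0.20 (limma adjusted p = 2.51e-08) and -1.47 ± 0.20 (limma adjusted p = 1.28e-06). Gp1bb was above the level on 1 of 3 and Gp9 on 2 of 3 empty-vector arrays, so bounds are given for these too. Gp1bb was at least 8.43-fold lower and Gp9 at least 3.9-fold lower (limma adjusted p = 0.00522 for Gp9). The summed signal of the members was 145.3 to 192.2 in empty-vector LB31, against 2650 to 5806 in Blnk KO-labelled marrow, and that of the neutrophil markers was 150.1 to 161.6, against 17490 to 39930. A sorted marrow sample and a cultured line also differ in their cell mixture, which cannot be told apart from a difference between leukaemic and other B-lineage cells.

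Of the members, 4 passed the filter within LB31, Itga2b, Gp9, Gp5 and Pf4, and none was called in any of the 3 vector comparisons by limma, nor had an unadjusted p under 0.05. For BLNK-labelled against empty-vector LB31 the changes ran from -0.80 ± 0.75 for Gp9 to 0.01 ± 0.15 for Itga2b, where 15.9% of 13019 genes were called. For YF-labelled against empty-vector LB31 they ran from -0.34 ± 0.75 for Gp9 to 0.04 ± 0.15 for Itga2b, where 0.346% were called, and for BLNK-labelled against YF-labelled from -0.45 ± 0.75 for Gp9 to -0.03 ± 0.15 for Itga2b, where 9.02% were called. Itga2b read 6.53, 6.21 and 6.13 with BLNK, 6.35, 6.20 and 6.39 with YF and 6.09, 6.36 and 6.38 with the empty vector. Gp9 had the largest SD of the 4 in every group, at 2.43, 5.30 and 2.54, then 4.65, 2.52 and 4.63, and 4.43, 5.31 and 3.19 in the same groups, so its standard errors in LB31 exceed any of its vector changes except that of BLNK-labelled against empty-vector cells.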

How the data were processed

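Transcript signals were measured in 21 samples, 12 of sorted marrow cells and 9 of LB31, from 100 ng of total RNA each. The deposited intensity values are linear probe set signals from MAS5, per the submitters' processing notes, which give no version. No source used here states a scaling. Means trimmed by 2% at both ends lay between 105.1 and 185.3 per array, and medians between 15.3 and 31.5. The number of arrays limits the precision.

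Values were taken as log2(signal + 4) and quantile normalized among the arrays of a fit (12 marrow, 9 LB31, or all 21), so fold changes understate the change of dim genes. Genes had to exceed the 40th percentile of the array on 3 or more arrays of the fit, and the brightest probe set over all arrays stood for the gene. The platform annotation gave 34945 probe sets 1 symbol, 932 several and 9160 none, and 64 controls were left out. The 7 measured members matched RefSeq (GRCm38.p6) by Entrez ID with 0 symbols changed. Group means were fitted with limma 3.58.1 in R 4.3.3 (lmFit, eBayes with trend, no covariate), adjusted by Benjamini-Hochberg over all genes of the fit, and tested on simulated data. The members and lists were chosen with earlier results of these data known. Genes outside the members were named by rule: at most the 3 largest called changes in each direction per list and comparison, the 6 most like the members' mean, and Gata1, Itgb3, Cdh5, Pecam1, Elane, S100a8 and Septin5 at any value. The main fits did not pair arrays by replicate number. Residuals of same-numbered arrays correlated between -0.10 and 0.27 in marrow, over 0.1 in 2 of 18 pairs, and between -0.04 and 0.02 in LB31. Those of other arrays correlated between -0.31 and 0.24 in marrow and between -0.03 and 0.05 in LB31. The highest value, 0.27, was that of LAP tg array 3 and Blnk KO-labelled array 3. Whether same-numbered arrays share a batch cannot be told from these values.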

Additional observations from a re-analysis of the deposited data

How the results depend on the processing

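The 7 calls of LAP tg/BLNK KO-labelled against wild-type marrow and of empty-vector LB31 against Blnk KO-labelled marrow were made again with the values as deposited, arrays centred on the median, all 21 arrays normalized together for marrow and only the 6 arrays of the pair for LB31, pseudocounts of 1 and 16, no filter, all probe sets and no intensity trend. All 7 were also made when single arrays were left out in turn, each of the 12 marrow arrays for the first comparison and each of the 6 arrays of the pair for the second. Leaving out 1 array gave 2 to 7 calls against Blnk KO-labelled and 4 to 7 against LAP tg marrow, 0 to 1 for each singly altered group against wild-type, 0 to 3 for the interaction and 0 for each vector comparison in LB31. The values as deposited called 1 member in Blnk KO-labelled against wild-type marrow. Without LAP tg array 3 and Blnk KO-labelled array 3, a setting chosen after seeing the data, the interaction had 6 calls. Within those groups the members stood highest on these arrays, so this setting raises the interaction by itself. Without an intensity trend, 5 were called against Blnk KO-labelled marrow, where Itga2b (limma adjusted p = 0.0662) and Pf4 (0.0537) were lost, and 5 against LAP tg marrow, where Gp9 (0.0705) and Pf4 (0.0539) were lost. Without the filter Gp9 was lost against LAP tg marrow (limma adjusted p = 0.0512). With a replicate block, the counts were 7 in each comparison of LAP tg/BLNK KO-labelled marrow with another marrow group and in empty-vector LB31 against marrow, and 0 elsewhere, as without it.

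Directions turned only among uncalled values. With each array left out, Gp9 in Blnk KO-labelled against wild-type marrow ran from -0.39 to 0.31, Gp1bb from -0.13 to 0.55 and Pf4 from -0.0072 to 0.61, and without both arrays 3 they were -0.39, -0.13 and -0.0071. In LB31, Itga2b ran from -0.12 to 0.10 for BLNK-labelled and from -0.062 to 0.10 for YF-labelled against empty vector, and from -0.16 to 0.061 between BLNK-labelled and YF-labelled cells. Gp9 ran from -0.86 to 0.29 for YF-labelled against empty vector, Pf4 from -0.76 to 0.074 between BLNK-labelled and YF-labelled cells, and Gp5 was 0.017 as deposited for YF-labelled against empty vector. The causes were not tested.

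With the values as deposited, the median of all genes shifted by 0.36 for LAP tg/BLNK KO-labelled and 0.30 for Blnk KO-labelled against wild-type marrow, by 0.40 for LAP tg/BLNK KO-labelled against LAP tg marrow and by 0.32 for YF-labelled against empty-vector LB31. Of the genes called, 85.8%, 89.5%, 90.6% and 96.5% were then higher in these comparisons, against 52.9%, 49.1%, 53.6% and 37.8% after quantile normalization. Signal near the floor limits Ppbp, Vwf, Gp1bb and Gp9 in LB31, and Pf4 on some BLNK-labelled and YF-labelled arrays.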

Other observations

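The transcription factors of the lineage went both ways in LB31. In empty-vector LB31 against Blnk KO-labelled marrow, 3 of 9 were called higher by limma, Gfi1b, a repressor of erythroid and megakaryocyte cells, by 3.29 ± 0.32, Runx1 by 1.49 ± 0.15 and Meis1 by 0.93 ± 0.33. Another 5 were called lower, where 29.9% of 14648 genes were, and the median of the 9 was -1.12. Many genes differed between the line and marrow, so these counts are not read as a trait of the factors. The 3 largest falls were those of Nfe2 (-2.72), Tal1 (-2.29) and Gata1 (-2.12). Within LB31, Runx1 was lower in BLNK-labelled than in empty-vector cells by a log2 change of -0.30 (limma adjusted p = 0.000889) and Gfi1b by -0.27 (limma adjusted p = 0.0279), and Fli1, an Ets factor, was higher by 0.77 (limma adjusted p = 0.01), while none of the 4 members tested there was called.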
